A study of Mus musculus with 13 samples.

Results

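Sod1, Sod2, Sod3, Cat, Gpx1, Gpx3, Gpx4, Prdx3, Mt1 and Mt2 encode proteins that remove superoxide and peroxides or bind metals in mouse tissue. They were taken by name from the deposited table, 10 of its 55471 genes, and all 10 passed the filter on low counts, which left 15000 genes. The table came from bulk RNA sequencing of whole mouse hearts in 3 groups: R502W mavacamten (4 libraries), R502W control (4 libraries) and WT control (5 libraries). R502W alters cardiac myosin-binding protein C (Mybpc3), a thick-filament protein in which variants cause hypertrophic cardiomyopathy, and mavacamten is a drug that inhibits cardiac myosin. The treated mice took 2.5 mg/kg/day with their water over 21 weeks, and both control groups were labelled as controls with no vehicle named. The design text put all mice at 24 weeks of age, while the extraction protocol spoke of hearts aged 3 and 18 weeks. The sources used here gave no strain, sex, zygosity of R502W or age per library. Since nothing in the labels ties every library to its own animal, p-values rest on the variation among libraries, which may be technical.

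Superoxide leaks from the respiratory chain of the beating heart and is made by oxidases. The superoxide dismutases turn it into hydrogen peroxide: SOD1, which needs copper and zinc, works mainly in the cytosol, SOD2, which needs manganese, in the mitochondrial matrix, and SOD3 outside the cell. Hydrogen peroxide is then removed by catalase in peroxisomes, by glutathione peroxidases in several compartments and by peroxiredoxin 3 in mitochondria. Metallothioneins 1 and 2 are small cysteine-rich proteins that hold zinc and copper and react with oxidants, and their genes are induced through metal response elements by the zinc-sensing factor MTF1.

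Mt1 and Mt2 lie next to each other on chromosome 8, and both fell in R502W hearts together with Sod1, so the 250 bases before the RefSeq start of these 3 genes are shown (RefSeq, GRCm38.p6, all on the plus strand, 5′ to 3′). Capitals mark matches, on either strand, to the metal response element core (TGCACNC or TGCGCNC) or to the antioxidant response element (TGACNNNGC). The windows are chr8:94178839-94179088 for Mt1, chr8:94172368-94172617 for Mt2 and chr16:90220512-90220761 for Sod1.
Mt1: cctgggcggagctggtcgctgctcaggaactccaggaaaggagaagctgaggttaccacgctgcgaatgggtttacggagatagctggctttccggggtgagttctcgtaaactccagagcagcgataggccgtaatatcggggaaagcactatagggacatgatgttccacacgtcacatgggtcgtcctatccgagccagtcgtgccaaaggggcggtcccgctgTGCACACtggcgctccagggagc
Mt2: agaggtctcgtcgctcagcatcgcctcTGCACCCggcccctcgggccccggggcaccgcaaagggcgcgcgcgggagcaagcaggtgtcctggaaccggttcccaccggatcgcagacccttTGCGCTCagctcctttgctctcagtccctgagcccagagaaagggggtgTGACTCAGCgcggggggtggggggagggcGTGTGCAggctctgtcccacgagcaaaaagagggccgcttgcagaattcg
Sod1: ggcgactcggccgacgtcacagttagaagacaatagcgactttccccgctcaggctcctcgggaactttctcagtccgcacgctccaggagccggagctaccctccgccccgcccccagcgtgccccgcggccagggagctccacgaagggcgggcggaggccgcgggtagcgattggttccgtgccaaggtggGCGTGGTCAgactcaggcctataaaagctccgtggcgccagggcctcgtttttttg
The search covered 300 bases, from 250 before each RefSeq start to 50 from it on. Windows were present for 9 of the 10 genes, with 4 for Gpx4 and 1 for each of the others. Mt1 held 3 matches to the metal response element core, of which the one at positions -23 to -17 is printed and the other 2, at 3 to 9 and 21 to 27, lie past the start. Mt2 held 4 such matches, at positions -223 to -217, -128 to -122 and -50 to -44 and, past the start, at 5 to 11. None of the windows of the other 7 genes held this core, which was found in 25.7% of all 32817 windows and 3 or more times in 1.97% of them. The antioxidant response element was found in 12.4% of all windows and in those of Sod1 (positions -56 to -48) and Mt2 (-79 to -71). No match printed here overlaps another. The glucocorticoid receptor motif TGTTCT was present in the windows of Cat and Gpx3 and in 19.0% of all windows. Neither the E-box CACGTG (7.15% of all windows) nor the D-box TTATGTAA (0.935%) was found in any window of the 9 genes. A match is only a run of letters, and the gene starts of GENCODE M21 differ from the RefSeq starts by a few bases for Mt1 and Sod1 and by more for Mt2. Where transcription starts in these hearts was not tested, so a match past a RefSeq start need not lie in the transcript. Elements outside the 300 bases were not searched.

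The 4 R502W mavacamten libraries held 16001651 to 17520706 expected counts each, those of R502W control 15350622 to 19361103 and those of WT control 15420583 to 18218404. Levels below are in CPM, counts scaled to a common library size after TMM correction. All 7 cardiomyocyte markers were present in every library, with summed levels of 54210 to 75617 CPM in R502W mavacamten, 58260 to 66876 CPM in R502W control and 43207 to 60148 CPM in WT control. Myh6 made up much of these sums, at 31862 to 35106 CPM in R502W control and 18136 to 27563 CPM in WT control. Between these 2 groups, 1 of the 7 markers was called higher and 0 lower, and 4 had a negative log2 fold change. Their median was -0.0029. Several libraries stood apart in tissue markers. Adipocyte markers (7 genes) summed to 1077 CPM in R502W mavacamten library 4, 861 CPM in R502W control library 1 and 1147 and 1199 CPM in WT control libraries 2 and 3, against 232 to 481 CPM in the other 9. Bmp10, an atrial gene, was at 6.23 CPM in R502W mavacamten library 3, 1.57 CPM in R502W control library 1 and 8.33 CPM in WT control library 3, and at 307 to 672 CPM in the other 10. Myl7, another atrial marker, did not follow Bmp10, so Bmp10 alone does not show how much atrial tissue a library held. It was at 434, 612 and 1243 CPM in these 3 libraries and at 287 to 1064 CPM in the other 10. T lymphocyte and thymocyte markers (8 genes) summed to 439 CPM in WT control library 2 and to at most 6.82 CPM elsewhere. Lung epithelium markers (5 genes) summed to 140.3 CPM in R502W mavacamten library 1 and to 356 and 562 CPM in WT control libraries 2 and 3. In bulk tissue, fewer cells of a type and less RNA per cell cannot be told apart.

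Per kilobase of the principal transcript, the order of the 10 genes over the 13 libraries ran from Gpx4 and Gpx3, with means of 414 and 379.8 CPM per kilobase, through Sod1 (252), Prdx3 (129), Mt1 (116), Cat (78.4), Sod2 (73.0) and Gpx1 (61.1) to Mt2 (19.2) and Sod3 (15.2). The lipid-peroxide enzyme Gpx4 and the secreted enzyme Gpx3 thus headed the set, and the extracellular dismutase closed it. Place in this order depended on the length used for Sod1, whose annotated exons together span 3970 bases against 641 bases for its principal transcript: divided by all exons, Sod1 stood at 40.6 CPM per kilobase, at rank 8. The genes also differed in how even they were. The coefficient of variation over all 13 libraries was 8.25% for Cat, 8.31% for Prdx3 and 8.41% for Gpx4, against 31.4% for Gpx3 and 34.9% for Mt2.

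**Figure D1:**
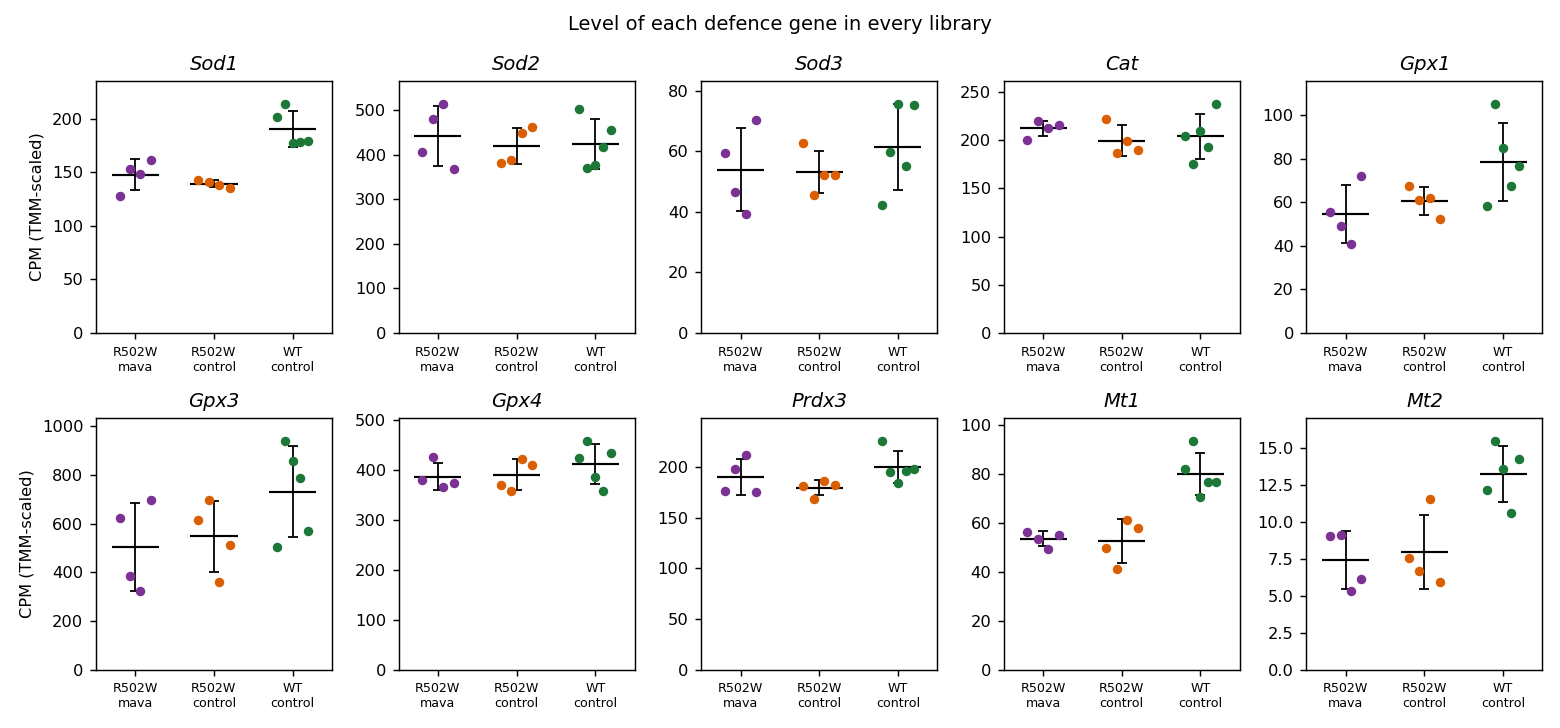
Level of each of the 10 genes in every library, in CPM on TMM-scaled library sizes, with each group's mean (line) and SD (bars); axes start at 0. For Sod1 and Mt1 every R502W control library lies below every WT control library, while Cat, Sod2 and Gpx4 overlap between all groups.

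In hearts of untreated R502W mice, the cytosolic dismutase gene Sod1 and the metallothionein genes Mt1 and Mt2 were lower than in WT control. Sod1 fell by 26.8%, Mt1 fell by 34.2% and Mt2 fell by 39.96%. The mitochondrial and extracellular dismutases, catalase, the 3 glutathione peroxidases and Prdx3 did not pass the test. Of the 10 genes, 3 were called lower and 0 higher by edgeR's quasi-likelihood test (adjusted p under 0.05 over all 15000 genes). Over all genes, 12.4% were called in this comparison, 3.75% lower (562 genes) and 8.63% higher (1294); DESeq2 called 1082 lower and 1403 higher. All 10 estimates were negative, as were 7661 of the 15000 genes tested. The median log2 fold change of the 10 was -0.29, beside -0.0085 over all genes tested.

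Sod1 had 128, 153, 149 and 161 CPM in R502W mavacamten, 143, 141, 138 and 135 CPM in R502W control and 202, 214, 178, 178 and 179 CPM in WT control. Both R502W groups lay wholly below WT control, and the 4 R502W control libraries spanned only 135 to 143 CPM. The log2 fold change in R502W control against WT control was -0.45 ± 0.084 (SE; adjusted p = 0.00488, edgeR). Sod2 had 406, 479, 514 and 367 CPM in R502W mavacamten, 380.5, 388, 448 and 462 CPM in R502W control and 502.6, 371, 376, 418 and 455 CPM in WT control. The 3 groups covered the same range for this matrix enzyme, with a log2 fold change of -0.017 ± 0.12 between R502W control and WT control (95% interval -0.28 to 0.24). The secreted dismutase Sod3 had 59.5, 46.7, 39.2 and 70.5 CPM in R502W mavacamten, 62.6, 45.7, 52.3 and 52.2 CPM in R502W control and 42.2, 59.7, 75.6, 55.1 and 75.1 CPM in WT control. Its groups overlapped and its estimate, -0.21 ± 0.19, did not pass the test (adjusted p = 0.486, edgeR).

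Catalase was among the most even genes of the set. Cat had 200.5, 219.8, 213 and 215 CPM in R502W mavacamten, 222, 187, 199 and 190.1 CPM in R502W control and 204, 175, 209.7, 193 and 238 CPM in WT control. The groups overlapped fully, and the log2 fold change of -0.032 ± 0.089 in R502W control against WT control had a 95% interval of -0.22 to 0.16. The mitochondrial peroxidase Prdx3 had 176, 198, 212 and 175 CPM in R502W mavacamten, 181, 169, 186 and 182 CPM in R502W control and 226, 195, 184, 196 and 198 CPM in WT control. The R502W control and WT control libraries overlapped only between 184 and 186 CPM, and the log2 fold change was -0.15 ± 0.081 (adjusted p = 0.226, edgeR).

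Of the glutathione peroxidases, Gpx1, the cytosolic and mitochondrial selenoenzyme, had 55.4, 49.2, 40.9 and 72.2 CPM in R502W mavacamten, 67.3, 60.8, 61.7 and 52.3 CPM in R502W control and 58.1, 105, 84.7, 67.6 and 76.6 CPM in WT control. WT control library 2 was the highest and R502W mavacamten library 3 the lowest, and the groups overlapped. The log2 fold change in R502W control against WT control, -0.37 ± 0.18, did not pass the test (adjusted p = 0.174, edgeR). Gpx3, which is secreted into plasma, had 622, 384, 322 and 695 CPM in R502W mavacamten, 616, 698, 362 and 514 CPM in R502W control and 502.2, 941, 858, 786 and 571 CPM in WT control. It spread widely within every group, and its log2 fold change of -0.42 ± 0.26 came with a 95% interval of -0.97 to 0.14. Gpx4, which reduces lipid peroxides in membranes, had 379, 426, 365 and 375 CPM in R502W mavacamten, 369, 358, 422 and 411 CPM in R502W control and 425, 459, 385, 358 and 435 CPM in WT control. Its groups overlapped, with a log2 fold change of -0.079 ± 0.090. In the annotated transcripts, 34.7% of the 50-base stretches of Gpx4 also occurred in another gene, chiefly a processed pseudogene with 1469 expected counts over all libraries against 86504 for Gpx4. For Sod2 the share was 21.0%, so reads of these 2 genes could have been split by the authors' counting, while Mt1 and Mt2 shared no such stretch.

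Mt1 had 56.3, 53.3, 49.2 and 55.3 CPM in R502W mavacamten, 49.97, 41.4, 61.1 and 58.0 CPM in R502W control and 82.2, 93.7, 70.6, 76.9 and 76.6 CPM in WT control. All 8 R502W libraries lay below all 5 WT control libraries. The log2 fold change in R502W control against WT control was -0.60 ± 0.11 (adjusted p = 0.00488, edgeR). Mt2, the less abundant of the pair, had 9.06, 9.07, 5.31 and 6.11 CPM in R502W mavacamten, 7.58, 6.67, 11.5 and 5.96 CPM in R502W control and 12.2, 15.5, 13.6, 10.6 and 14.2 CPM in WT control. Here R502W control library 3 reached into the WT control range, and the log2 fold change was -0.74 ± 0.21 (adjusted p = 0.0369, edgeR). Its lowest library held 75 expected counts. Sod1 and Mt1 were 2 of the 10 genes whose R502W control and WT control libraries did not overlap, both lower, against 5.45% of all genes wholly lower and 12.3% wholly higher. The Mt2 call was held in 4 of 11 other settings and in 7 of 13 runs that left out 1 library. It was lost without R502W control library 1, 2 or 4 or WT control library 2, 3 or 5 (adjusted p = 0.0519 to 0.101, edgeR), with total library size (0.0556), without the 4 libraries high in adipocyte markers (0.158), without the 3 low in Bmp10 (0.124) and with the trend on exonic length removed (0.0968). Sod1 was called in all 13 runs that left out 1 library and in 10 of 11 other settings, and Mt1 in all 13 and all 11.

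**Figure D2:**
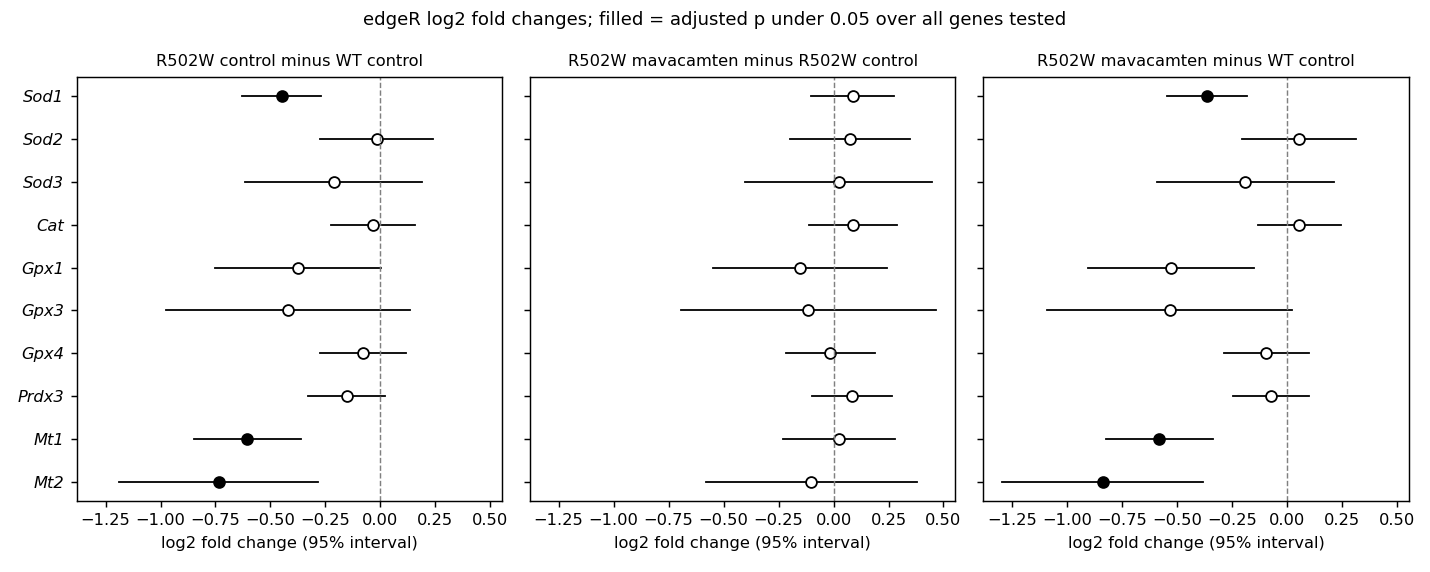
Log2 fold change of each gene (point) with its 95% interval (line) in the 3 comparisons; filled points had an adjusted p under 0.05 over all genes tested. Sod1, Mt1 and Mt2 are filled in both comparisons with WT control, and no gene is filled in R502W mavacamten against R502W control.

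With mavacamten, none of the 10 genes differed from untreated R502W hearts by more than the spread between libraries. Mt1 averaged 53.5 ± 3.14 CPM in R502W mavacamten and 52.6 ± 8.85 CPM in R502W control (SD, n = 4 each), and Sod1 averaged 148 ± 14.4 CPM and 139 ± 3.22 CPM in the same groups. None of the 10 was called, and all had an adjusted p of 1.00 (edgeR). Of all 15000 genes, 0 were called (0%) and 525 (3.5%) had an unadjusted p under 0.05, none of them among the 10. DESeq2 called 6 genes, none of the 10. Every gene's groups overlapped, beside 1.29% of all genes wholly higher and 1.58% wholly lower. The 10 estimates ran from -0.15 (Gpx1) to 0.090 (Cat), with a median of 0.024 beside 0.0036 over all genes.

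The intervals show which sizes of change these data leave possible. For the dismutases the log2 fold change under mavacamten was 0.086 ± 0.088 for Sod1 (95% interval -0.10 to 0.28), 0.074 ± 0.13 for Sod2 and 0.023 ± 0.20 for Sod3. Cat was at 0.090 ± 0.093 and Prdx3 at 0.083 ± 0.085, both with a positive estimate. Among the glutathione peroxidases Gpx1 was at -0.15 ± 0.18, Gpx3 at -0.11 ± 0.27 and Gpx4 at -0.015 ± 0.095. The Gpx3 interval, -0.69 to 0.47, was the widest of the set. Mt1 was at 0.025 ± 0.12 (95% interval -0.23 to 0.28) and Mt2 at -0.10 ± 0.22 (-0.58 to 0.38). The upper bound for Mt1 was less than the size of the Mt1 difference between R502W control and WT control, -0.60, and so was that for Sod1 beside -0.45. The comparison with mavacamten and the one with WT control use the same R502W control libraries, so these values are given side by side and not as a test of return to the WT level.

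In treated R502W hearts, Sod1, Mt1 and Mt2 were lower than in WT control. Sod1 was at a log2 fold change of -0.36 ± 0.084 (adjusted p = 0.0229), Mt1 at -0.58 ± 0.11 (0.0112) and Mt2 at -0.84 ± 0.21 (0.0311, edgeR). These 3 of 10 were called lower and 0 higher, beside 8.21% of all genes called, 2.29% lower (343 genes) and 5.93% higher (889); with RLE factors these were 413 lower and 668 higher. In each of the 3 genes every treated library lay below every WT control library, a pattern held by 3.79% of all genes, with 8.54% wholly higher. Gpx1, at -0.53 ± 0.18, had an adjusted p of 0.0804 (edgeR) and overlapped WT control only through R502W mavacamten library 4, at 72.2 CPM. Gpx3 was at -0.53 ± 0.26 (0.212), while Sod2 (0.057), Sod3 (-0.19), Cat (0.057), Gpx4 (-0.094) and Prdx3 (-0.071) lay nearer to 0. The 3 calls were all lost without the 3 libraries low in Bmp10 (adjusted p = 0.103 for Sod1, 0.0778 for Mt1 and 0.167 for Mt2), and Mt2 also without R502W mavacamten library 2, 3 or 4 or WT control library 3 or 5 (0.0509 to 0.0866). With only the groups compared in the fit, Sod1 (0.0694) and Mt2 (0.0515) were not called, and Mt2 was also lost without the 4 libraries high in adipocyte markers (0.168) and with the trend on exonic length removed (0.0922). Gpx1 was called by DESeq2 (adjusted p = 0.0230) and by edgeR without R502W mavacamten library 4 (0.0316), without WT control library 1 (0.0463) or without the 4 libraries high in adipocyte markers (0.0480).

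The 3 called genes were also the shortest of the set. Their principal transcripts measured 511 bases (Mt2), 549 bases (Mt1) and 641 bases (Sod1), and the next, Gpx4, measured 959 bases. Over 14990 genes the log2 fold change tracked this length, with a Spearman correlation across genes of 0.40 in R502W control against WT control, -0.020 in R502W mavacamten against R502W control and 0.43 in R502W mavacamten against WT control; genes are not independent replicates. The 446 genes under 700 bases had a median log2 fold change of -0.19 in R502W control against WT control, and 11.7% of them were called lower against 1.79% higher. In treated R502W hearts against WT control the same genes had a median of -0.21, with 9.64% called lower. All 3 members lay below these medians, which is no test, as they were taken here because they were called lower. With the trend on principal transcript length removed, a setting added after the data were seen, Mt1 stayed called in R502W control (-0.40 ± 0.090, adjusted p = 0.0164, edgeR) and in R502W mavacamten (-0.36 ± 0.090, 0.0490), both against WT control. Sod1 moved to -0.25 ± 0.073 (adjusted p = 0.0521) in R502W control and -0.15 ± 0.073 (0.27) in R502W mavacamten. Mt2 moved to -0.54 ± 0.21 (0.131) in R502W control and -0.62 ± 0.21 (0.129) in R502W mavacamten. The part of transcript length in the 3 differences was not tested beyond this.

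**Figure D3:**
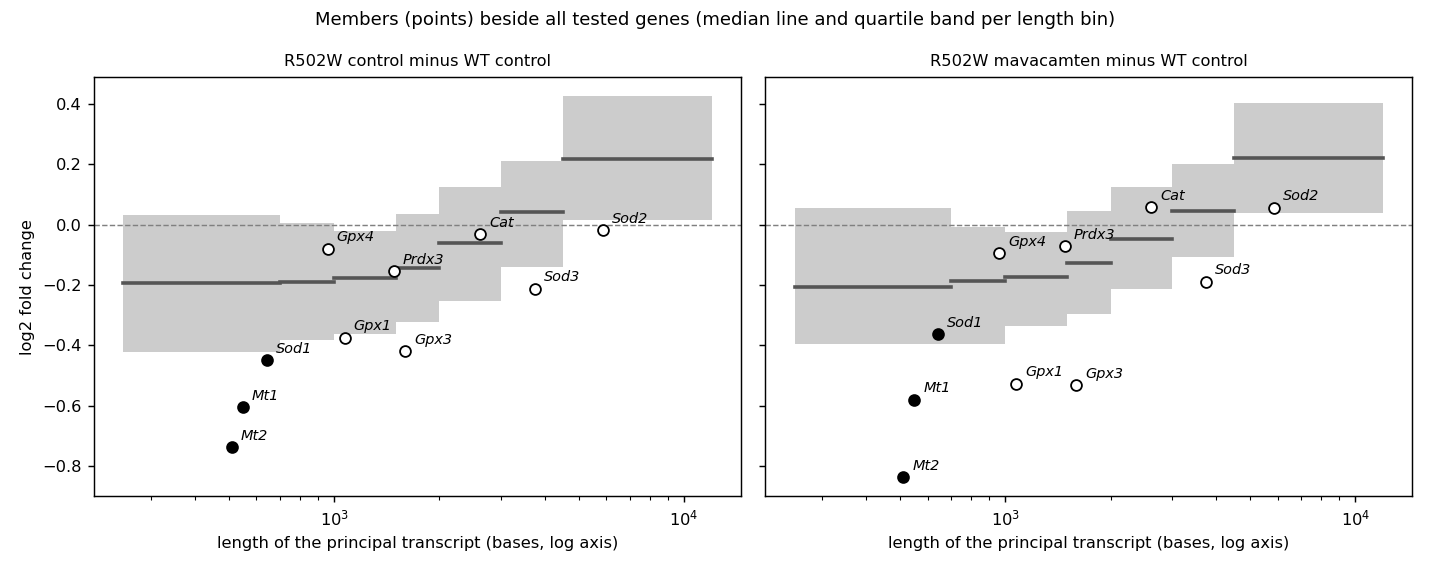
Log2 fold change against the length of the principal transcript (log axis) in both comparisons with WT control; points are the 10 genes (filled where the adjusted p was under 0.05), dark lines the median and grey bands the middle quartiles of all tested genes per length bin. Mt1 and Mt2 lie below the band of their length bin, where the median is -0.19 and -0.21.

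Within the set, the genes did not vary as one block from library to library. Over the 13 libraries and on the log2 CPM scale, Sod2 ran against Gpx3 (Pearson r = -0.83, Spearman rho = -0.82) and Gpx1 (r = -0.72, rho = -0.75) and with Prdx3 (r = 0.73, rho = 0.70). These relations were as close or closer after each group's mean was taken out, at r = -0.93, -0.88 and 0.87. Gpx1 went with Gpx3 (r = 0.81) and Sod3 (r = 0.73), also within groups (0.73 and 0.74). Mt1 went with Sod1 (r = 0.83) and Mt2 (r = 0.82), but within groups these were 0.21 and 0.44, so that they rested largely on the offset between R502W and WT control. These are descriptions with no test, over libraries that share depth, scaling and tissue makeup.

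The genes most alike to each member were taken from all genes tested by Pearson r over the 13 libraries. Sod2 was followed by Nipsnap2 (0.98), Pygm (muscle glycogen phosphorylase, 0.96) and Adk (adenosine kinase, 0.96), and Prdx3 by Rbpms2 (0.96), Atp5b (an ATP synthase subunit, 0.95) and Uqcrc1 (a complex III subunit, 0.94). Gpx3 was followed by Txndc5 (0.96), Mybphl (0.96) and Prkag2 (0.96), Gpx1 by Shkbp1 (0.97), Rdh12 (0.94) and Dynll1 (0.93), Sod3 by Scpep1 (0.89), Ift88 (0.89) and Ampd2 (0.88), and Gpx4 by Chmp4b (0.94), Cenpv (0.89) and Sf3a2 (0.89). Cat was followed by Pank1 (a pantothenate kinase, 0.87), Aox1 (aldehyde oxidase, itself a source of hydrogen peroxide, 0.86) and Ghr (the growth hormone receptor, 0.82). For Sod1, Mt1 and Mt2 a second value gives r after each group's mean was taken out. Sod1 had Rbbp4 (0.96, 0.83), Sqor (0.95, 0.75) and the ribosomal protein gene Rpl15 (0.94, 0.70). Mt1 had Osgep (0.94, 0.81), Cuta (0.94, 0.91) and Ccl11 (0.93, 0.70), and Mt2 had Pigt (0.93, 0.83), Mapk3 (0.90, 0.70) and Serpinb6a (0.89, 0.71).

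Gpx3, Gpx1 and Sod3 are set here beside the markers of atrial muscle and fat. Gpx3 was lowest in R502W mavacamten library 3, at 322 CPM, where the 7 atrial cardiomyocyte markers summed to 3124 CPM, the least of all libraries. It was highest in WT control library 2, at 941 CPM, where they summed to 8366 CPM. At the highest sum, 8377 CPM in R502W control library 2, Gpx3 was at 698 CPM. Nppa made up much of these sums, at 1827 CPM in R502W mavacamten library 3 and 4950 CPM in R502W control library 2. Single atrial markers ordered the libraries otherwise. Myl7 was lowest in R502W control library 3, at 287 CPM, where Gpx3 was at 362 CPM. It was highest in WT control library 3, at 1243 CPM, where Gpx3 was at 858 CPM. The atrial sums ran from 3124 to 6453 CPM in R502W mavacamten, 4301 to 8377 CPM in R502W control and 3878 to 8366 CPM in WT control, with none of the 7 at 0 in any library and 0 of 7 called in any comparison. Gpx1 was highest in WT control libraries 2 and 3, at 105 and 84.7 CPM, the same libraries in which the adipocyte markers summed highest. The adipocyte sums ran from 233 to 1077 CPM in R502W mavacamten, 232 to 861 CPM in R502W control and 294 to 1199 CPM in WT control. Of these 7 markers, 0 were called in any comparison, and Lep and Retn were at 0 in R502W control library 3. Sod3 reached 70.5 CPM in R502W mavacamten library 4 and 75.6 CPM in WT control library 3, both high in these markers, but also 75.1 CPM in WT control library 5, which was not. The part of these tissues in the values of Gpx1, Gpx3 and Sod3 was not tested. Without the 4 libraries high in adipocyte markers, the log2 fold change in R502W control against WT control was -0.46 ± 0.087 for Sod1 (adjusted p = 0.00952, edgeR) and -0.58 ± 0.13 for Mt1 (0.0179). Without the 3 low in Bmp10 it was -0.51 ± 0.11 for Sod1 (0.0323) and -0.65 ± 0.14 for Mt1 (0.0320). Of the vascular and stromal markers, 3 of 7 endothelial and 2 of 6 fibroblast genes were called higher in R502W control than in WT control. Over all genes, 8.63% were called higher in this comparison. These marker calls were not read with a length trend removed, and the part of these cells in the results was likewise not tested.

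**Figure D4:**
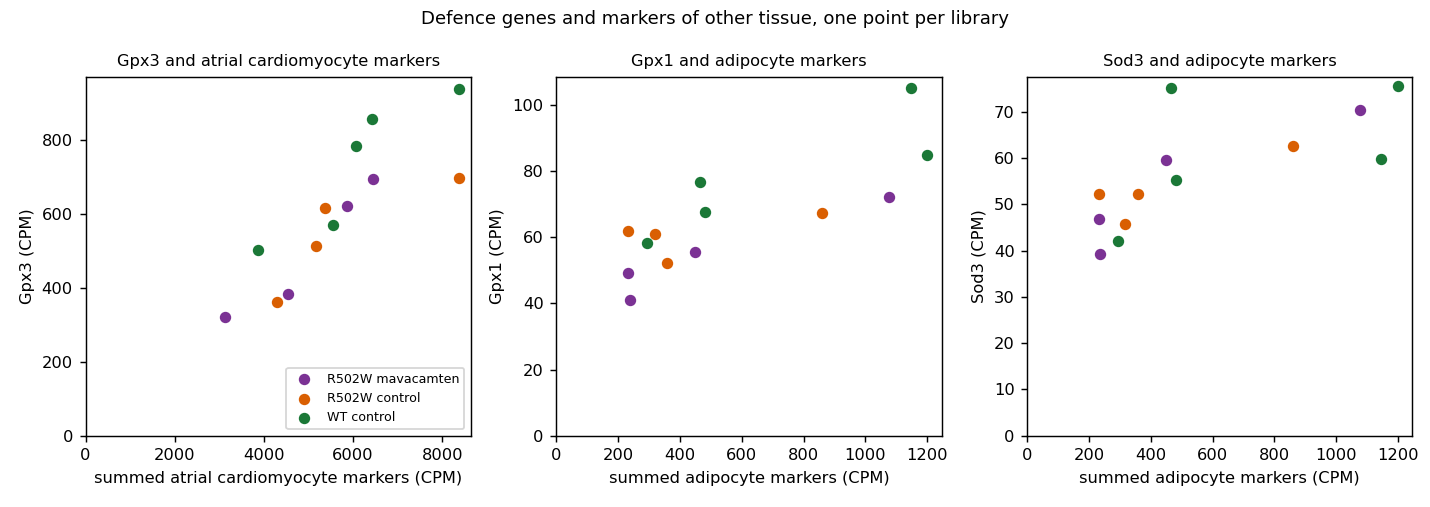
Gpx3 against the summed atrial cardiomyocyte markers, and Gpx1 and Sod3 against the summed adipocyte markers, all in CPM, 1 point per library; axes start at 0. Gpx3 was at 322 CPM at the lowest atrial sum, 3124 CPM, and at 941 CPM at a sum of 8366 CPM. At the highest sum, 8377 CPM, it was at 698 CPM. Nppa made up much of the atrial sums, with 1827 CPM of the lowest and 4950 CPM of the highest.

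The rest of the defence network was read from lists around the 10 genes. In R502W control against WT control 3 of the 5 peroxiredoxins other than Prdx3 were called lower and 0 higher, with a list median of -0.36. Over all genes, 3.75% were called lower. With the trend on exonic length removed, 2 of the 5 were called lower and the median was -0.29. With that on principal transcript length removed, 2 were called lower and the median was -0.24. Prdx1, a cytosolic peroxidase, had 124 to 147 CPM in R502W control and 167 to 208 CPM in WT control, a log2 fold change of -0.41 ± 0.086 (adjusted p = 0.00834, edgeR). Prdx6 was at -0.36 ± 0.085 (0.0160) and Prdx4, the peroxidase of the endoplasmic reticulum, at -0.40 ± 0.12 (0.0393). None of the 2 measured glutathione peroxidases outside the set was called (0 of the 2 tested of 5 listed), with values of -0.34 ± 0.14 for Gpx8 and -0.20 ± 0.18 for Gpx7. In the thioredoxin system, which feeds the peroxiredoxins, 1 of 10 was called higher and 0 lower: Txnrd1, cytosolic thioredoxin reductase, at 0.28 ± 0.087 (0.0493). The glutathione and NADPH genes gave 0 of 7 called, with values of 0.15 ± 0.079 for the glutathione reductase Gsr and -0.34 ± 0.21 for malic enzyme Me1.

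Genes that supply or sense the metals of these proteins moved in both directions. Of 5 genes of copper supply and SOD1 maturation, 1 was called lower and 0 higher: Atox1, a copper chaperone, at -0.38 ± 0.10 (0.0312, edgeR), while Ccs, the chaperone that loads SOD1, was at -0.087 ± 0.14 (0.726). Of 7 zinc handling genes, 3 were called higher and 0 lower, beside 8.63% of all genes called higher. Mtf1, the factor that binds metal response elements, had 18.4 to 22.1 CPM in R502W control and 9.66 to 17.1 CPM in WT control, a log2 fold change of 0.60 ± 0.16 (0.0248). The zinc importers Slc39a14 and Slc39a10 were at 0.64 ± 0.14 (0.0133) and 0.48 ± 0.14 (0.0413). All 3 have long principal transcripts: 7631 bases (Mtf1), 4926 bases (Slc39a14) and 5498 bases (Slc39a10). Of all genes of 4500 bases and over, 22% were called higher in this comparison. With the trend on principal transcript length removed, 1 of the 7 was called higher, and with that on exonic length removed 0. Mt3, the third metallothionein measured, had 1.502 to 3.78 CPM in R502W control and 1.94 to 3.14 CPM in WT control, a log2 fold change of 0.023 ± 0.33 (0.973). Among 9 genes of lipid peroxidation and iron storage, 1 was called higher and 2 lower. Tfrc, the transferrin receptor, had 103 to 147 CPM in R502W control and 35.6 to 92.2 CPM in WT control, a log2 fold change of 1.29 ± 0.30 (0.0154). The ferritin heavy chain gene Fth1 was at -0.41 ± 0.094 (0.0142) and the lipoxygenase Alox5 at -0.48 ± 0.12 (0.0233).

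Sources of oxidants and regulators were called at shares near the 12.4% of all genes, which is no result about these lists. Of 11 superoxide and peroxide sources, 1 was called lower and 0 higher: Maob, a monoamine oxidase of the outer mitochondrial membrane, at -0.48 ± 0.11 (0.0134, edgeR). Of 9 regulators, 1 was called lower and 0 higher: Nfe2l2, which encodes NRF2 and acts through antioxidant response elements, at -0.32 ± 0.081 (0.0206). Selenop, which carries selenium for the glutathione peroxidases, was the 1 of 6 selenoprotein synthesis genes called, lower at -0.33 ± 0.074 (0.0120). Of 12 genes known to respond to glucocorticoids, as the metallothioneins do, 1 was called higher, Cdkn1a at 1.21 ± 0.18 (0.00137), and 1 lower, the clock gene Per1 at -1.56 ± 0.33 (0.00846). Per1 had 17.0, 17.8, 22.8 and 42.1 CPM in R502W mavacamten, 21.2, 19.3, 14.0 and 44.6 CPM in R502W control and 82.2, 64.3, 66.6, 88.6 and 65.3 CPM in WT control, with no overlap between R502W and WT control. Mitochondrial housekeeping genes gave 0 of 15 called (median 0.012; Lonp1 at 0.23 ± 0.077 and Opa1 at 0.37 ± 0.14). Of the list genes named here as called, 9 were also called with the trend on principal transcript length removed. These were Prdx1, Prdx6, Slc39a14, Maob, Selenop, Tfrc, Alox5, Per1 and Cdkn1a. With the trend on exonic length removed, Slc39a14, Maob and Selenop were not called (adjusted p = 0.0517, 0.0573 and 0.0504, edgeR). In that setting Nfe2l2 (0.0370) and Fth1 (0.0170) were. Without the 3 libraries low in Bmp10, 1 was called, Cdkn1a. When each library was left out in turn, Prdx1, Maob, Tfrc, Per1 and Cdkn1a were called in all 13 runs, Txnrd1 in 1 (log2 fold change 0.19 to 0.32), Slc39a10 in 3 (0.34 to 0.56) and the others in 8 to 12.

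**Figure D5:**
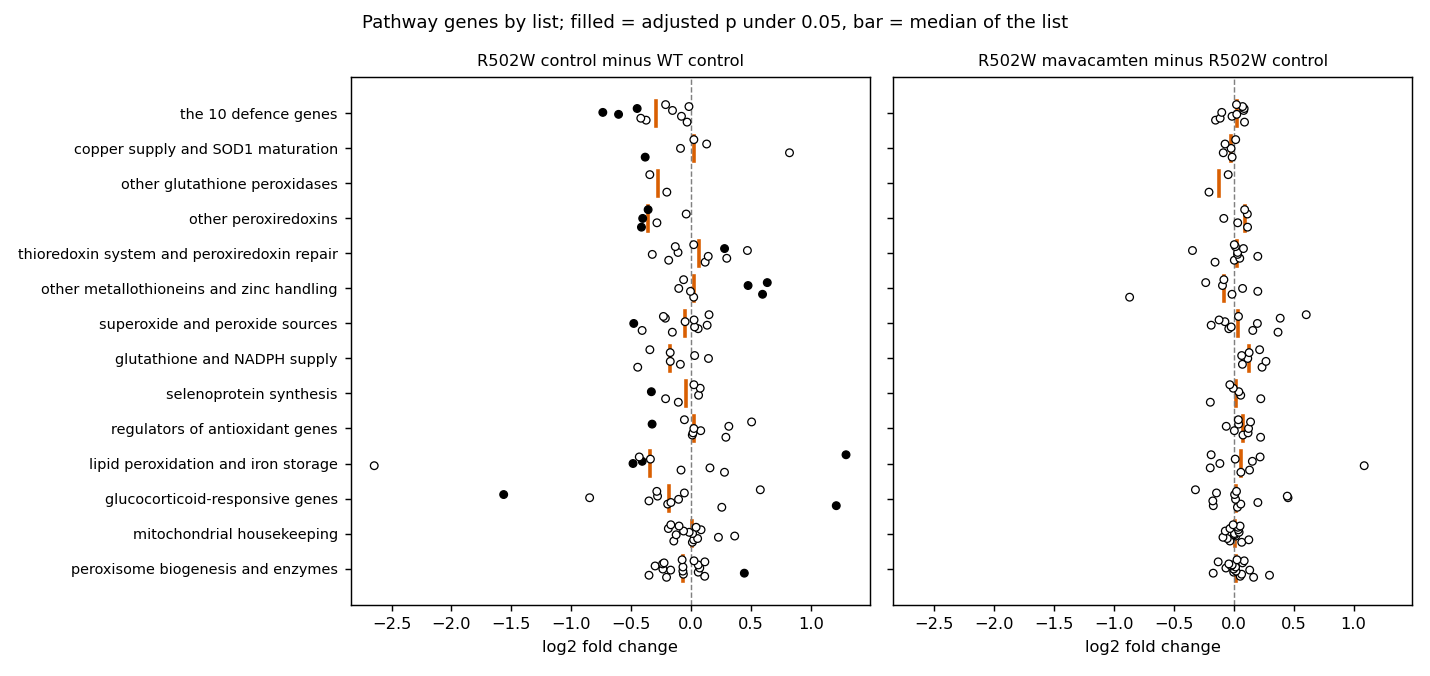
Log2 fold change of every tested gene (points) in the 10 defence genes and in 13 lists around them, for R502W control against WT control and for R502W mavacamten against R502W control; filled points had an adjusted p under 0.05 and bars are list medians. The 10 genes have a median of -0.29 on the left and 0.024 on the right, where no point is filled.

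Under mavacamten against R502W control 0 genes of any of the 13 lists were called by edgeR. Of the list genes named, Aox1 had the smallest unadjusted p, at 0.37 ± 0.14, followed by Mt3 at -0.87 ± 0.36 and Gclm, a subunit of the glutathione-making ligase, at 0.27 ± 0.12. Nearest to the members, Prdx1 was at 0.11 ± 0.090 and Mtf1 at -0.015 ± 0.16. In treated R502W hearts against WT control, Atox1 (-0.40 ± 0.10), Prdx1 (-0.30 ± 0.086), Prdx4 (-0.49 ± 0.12), Selenop (-0.29 ± 0.074), Nfe2l2 (-0.28 ± 0.081), Alox5 (-0.60 ± 0.13), Per1 (-1.56 ± 0.33) and the peroxisome gene Pex2 (-0.28 ± 0.078) were called lower. Txnrd1 (0.36 ± 0.087), Mtf1 (0.58 ± 0.16), Tfrc (1.11 ± 0.30), Cdkn1a (1.04 ± 0.18) and Bach1, a repressor at antioxidant response elements (0.52 ± 0.12), were called higher. Both comparisons with WT control use the same 5 WT libraries. Of these 13 genes, Txnrd1, Alox5, Per1 and Cdkn1a were also called with the trend on principal transcript length removed. With the trend on exonic length removed, Txnrd1 was not called (adjusted p = 0.0679, edgeR) and Bach1 was (0.0386). Cdkn1a and Alox5 were also called without the 3 libraries low in Bmp10. When each library was left out in turn, Alox5 and Cdkn1a were called in all 13 runs, Per1 in 12, Prdx4 in 9, Txnrd1, Selenop and Bach1 in 8, Atox1 in 5, Mtf1 and Pex2 in 3, and Prdx1, Nfe2l2 and Tfrc in 2.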

How the data were processed

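The libraries were prepared by poly(A) selection with a strand-specific protocol from whole hearts of mice, per the labels' protocols. The values deposited are expected counts for each Ensembl gene ID, the output of RSEM as run by the authors, going by the submitters' processing notes. Cutadapt, FastQC, DESeq2 and the build GRCm38 also stand in those notes with no version, and Ensembl release 99 stands in the file's name. No source used here gave the aligner or strand setting. Of all values, 5.76% were fractional, and counts were rounded to whole numbers. Libraries held between 15350622 and 19361103 expected counts.

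Groups followed the labels. In the 22 pairs of libraries within groups, the chi-square per degree of freedom of their counts ran from 7.75 to 113, so every library was kept. In R 4.3.3, edgeR 4.0.16 kept 15000 genes by filterByExpr (minimum count 10, minimum total 15), scaled libraries by TMM and fitted 1 quasi-likelihood model with 1 mean per group to all 13 libraries (biological coefficient of variation 0.23). The 3 comparisons were contrasts of that model. P-values were adjusted by Benjamini-Hochberg over all genes tested, with a threshold of 0.05. The SE is the size of the log2 fold change over the square root of the F statistic. Symbols, coordinates and transcript lengths came from GENCODE M21 by gene ID (55144 of 55471 IDs had a symbol). Motifs were searched on both strands of RefSeq promoter windows.

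The 10 genes and all lists were chosen with earlier results of these data known. All 10 were named throughout. From each list, up to 4 called genes with the smallest adjusted p were named, or, with none called, up to 2 with the smallest p as values. For each of the 10 genes the 3 most alike were named. Values of Ccs, and of Mt3, Mtf1 and Prdx1 outside this rule, were chosen after they were seen. Nnt was left out because 2 IDs share its symbol, and a list gene that the rule picked is not reported here. The count test was tested on simulated data with known changes. Alternatives were RLE factors, total library size, no filter, DESeq2 1.42.0, a fit of only the groups compared, a replicate block, removal of each library's trend on exonic length (loessFit of limma 3.58.1), the 4 libraries high in Adipoq or the 3 low in Bmp10 left out, and each library left out in turn. Removal of the trend on principal transcript length was added after the data were seen.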

Additional observations from a re-analysis of the deposited data

Results flagged for a closer look

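A library far from the others of its group, judged by the gap to its neighbour relative to the range of the group, was found in 0 of the 30 sets of values of the 10 defence genes and in 9 of 165 sets when the 45 list genes picked by the naming rule were added. Chance alone marks about 1 in 20 such sets. Xdh, xanthine dehydrogenase and a source of superoxide and peroxide, was at 351 CPM in R502W mavacamten library 4, against 84.3 to 93.2 CPM in the other 3 libraries of that group. Me1, malic enzyme, was at 227 CPM in that library, which also had a high sum of adipocyte markers. In WT control library 2, the one with thymocyte markers, Prdx1 was high at 208 CPM, while Gclm at 16.6 CPM and Slc39a14 at 25.8 CPM were low. Mt3 was high in WT control library 3, at 3.14 CPM. Sgk1 stood apart in R502W mavacamten library 2, at 35.5 CPM, and Slc39a10 in R502W mavacamten library 1, at 11.8 CPM. Slc40a1, the iron exporter ferroportin, was at 32.5 CPM in R502W control library 3. Causes were not tested.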

How the results depend on the processing

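Called genes over all genes numbered 1856 in R502W control against WT control, 0 in R502W mavacamten against R502W control and 1232 in R502W mavacamten against WT control, with 3, 0 and 3 of the 10 genes called. In R502W control against WT control, 1145 genes were called without the 4 libraries high in Adipoq, 404 without the 3 low in Bmp10 and 1084 with the trend on principal transcript length removed, where 1 of the 10 was called. In R502W mavacamten against R502W control DESeq2 called 6 genes. In R502W mavacamten against WT control the count was 674 with total library size, 740 with no filter, 216 with only the groups compared (1 of the 10), 653 without the libraries high in Adipoq, 86 without those low in Bmp10 (0 of the 10), 633 with the trend on exonic length removed and 453 with that on principal length removed (1 of the 10). Leaving out 1 library at a time gave 866 to 1870 genes and 2 to 3 of the 10 in R502W control against WT control, lowest without R502W control library 2. It gave 0 to 0 under mavacamten, and 359 to 1213 genes and 2 to 4 of the 10 in R502W mavacamten against WT control, lowest without R502W mavacamten library 2. Deviations of same-numbered libraries correlated at -0.32 to 0.25. Libraries of different numbers were not set beside them, so these values cannot decide whether the replicate numbers pair the samples. With the replicate number as a block, 963 and 349 genes were called against WT control in R502W control and R502W mavacamten, with 0 of the 10 in R502W mavacamten, and with the exonic length trend removed as well 620 and 145, again with 0 of the 10 in R502W mavacamten. DESeq2 called 1403 genes higher and 1082 lower in R502W control against WT control, beside 1294 and 562 with edgeR. Sod1, Mt1 and Mt2 kept a negative log2 fold change against WT control in all 24 other settings in both comparisons.

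Changes of sign touched only estimates that were not called, and the cause was not tested. In R502W control against WT control, the block gave Sod2 0.0090 and Cat 0.029, the exonic length trend removed gave Cat 0.049 and Gpx4 0.056, both together gave Cat 0.12, Gpx4 0.091 and Prdx3 9.7e-05, and the principal length trend removed gave Gpx4 0.089. In R502W mavacamten against R502W control, Mt1 was at -0.011 with total library size and -0.016 without the libraries high in Adipoq, which put Sod3 at -0.045. Without those low in Bmp10, Sod2 was at -0.038, Gpx1 at 0.033, Gpx3 at 0.13 and Mt2 at 0.020. In R502W mavacamten against WT control, the Adipoq set left out gave Sod2 -0.0054 and Cat -0.032, and the Bmp10 set left out gave Sod2 -0.079 and Sod3 0.011. There the exonic length trend removed gave Sod2 -0.16, Gpx4 0.049 and Prdx3 0.080, with the block Sod2 -0.16, Gpx4 0.085 and Prdx3 0.094, and the principal length trend removed Sod2 -0.17, Gpx4 0.086 and Prdx3 0.058. Leaving out 1 library at a time gave -0.095 to 0.029 for Sod2 and -0.12 to 0.028 for Cat in R502W control against WT control, -0.041 to 0.11 for Sod2 and -0.025 to 0.12 for Cat in R502W mavacamten against WT control, and -0.13 to 0.16 for Sod3, -0.31 to 0.067 for Gpx3, -0.054 to 0.026 for Gpx4, -0.075 to 0.10 for Mt1 and -0.22 to 0.14 for Mt2 in R502W mavacamten against R502W control.

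The smallest counts limit Mt2 most, with 75 expected counts in its lowest library. The median SE of a log2 fold change over all genes was 0.15 to 0.16.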
